A study of Mus musculus with 12 samples.

Results

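Fatty acids are burned in the liver in mitochondria and in peroxisomes. Long acyl chains enter mitochondria through the carnitine shuttle and are shortened there by a repeating cycle of dehydrogenation, hydration, dehydrogenation and thiolysis, whose end product feeds ketone body synthesis. Peroxisomes carry out a parallel cycle on very long, branched and bile acid side chains. Both sets of genes are classic targets of PPAR-alpha (gene Ppara), a nuclear receptor that is switched on by fatty acids in the fasted liver and binds DNA together with RXR at paired AGGTCA sequences.

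The genes described here are 32 named members of these pathways and of the PPAR-alpha response. Each was matched by its symbol in the array annotation, and where several probe sets bore that symbol the brightest on average was used. Of 18193 genes measured, 31 were members. Acsl1 was not analysed here. By their step, 17 of the 31 belonged to the mitochondrial pathway, from the carnitine shuttle to ketone body synthesis, and 8 to the peroxisomal one. The other 6, not grouped by location, were the receptor Ppara, the acyl-CoA thioesterases Acot1 and Acot2, and the target genes Vnn1, Pdk4 and Fgf21. The proteins of Acot2 and Pdk4 also lie in mitochondria but carry out no step of the oxidation, and values with both counted as mitochondrial are given beside the comparisons of the groups. All 31 had a mean value above that of the median gene. The lowest-ranked of them stood at the 58.5th percentile of gene means.

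The livers came from male Balb/c mice, 8 weeks old when obtained, and were profiled on Affymetrix mouse genome arrays with 3 arrays in each of 4 groups. The shLFAR1+CCl4 group received carbon tetrachloride (CCl4), a liver toxin used to produce fibrosis, together with Lenti-shLFAR1, a lentivirus that carries a hairpin against the liver-enriched long noncoding RNA lnc-LFAR1. The NC+CCl4 group received CCl4 with the control virus Lenti-NC. The shLFAR1 group received olive oil with Lenti-shLFAR1, and the NC group received olive oil with Lenti-NC. CCl4 was given at 5% (v/v) in olive oil, 0.3 ml per kg body weight, by intraperitoneal injection 3 times per week. Injections ran for 6 weeks in all, with the virus given into the tail vein once 2 weeks had passed and 4 weeks remained. All groups therefore carried a lentivirus, and none was free of virus. The labels call the arrays biological replicates and do not say whether RNA of several mice was pooled. No probe set here was assigned to lnc-LFAR1, so the knockdown itself was not checked.

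Whole-series facts that bear on these genes were few. Hepatocyte markers were present in every array, and their summed level on the linear scale lay between 1.05 and 1.07 times the NC mean in shLFAR1+CCl4 livers, and between 0.984 and 1.04 times in NC+CCl4 livers. Macrophage and Kupffer cell markers lay between 3.73 and 6.97 times the NC mean in NC+CCl4 livers, and stellate cell markers between 3.01 and 3.47 times. On the first principal component, which held 56.3% of the variance, replicate 3 of shLFAR1+CCl4 (39.2) lay among the NC+CCl4 arrays (34.8 to 48.8), whereas replicates 1 and 2 (-6.80 and -9.66) lay nearer the oil arrays (-26.7 to -20.4). NC+CCl4 replicate 1 differed from the other 11 arrays in its Gapdh control probe sets: the 3' set exceeded the 5' set by 0.716 on the log2 scale, against -0.205 to 0.0333 elsewhere. Each array mean lay between 5.10 and 5.11 on the log2 scale. Counts of called members are also given with the arrays that stood apart left out.

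**Figure D1:**
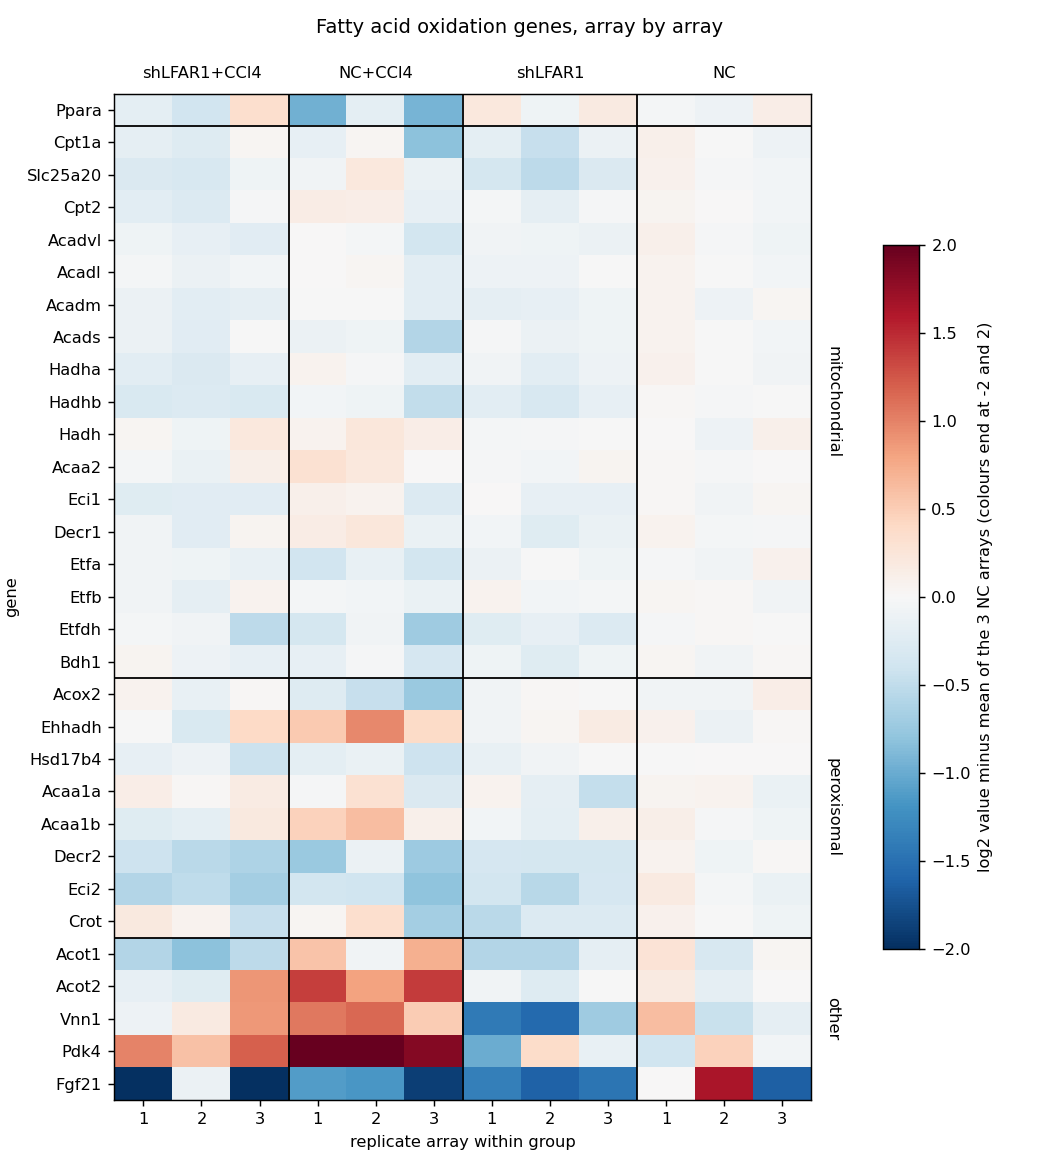
Log2 value of each of the 31 genes (rows, by compartment) in each of the 12 arrays (columns, replicates 1 to 3 within shLFAR1+CCl4, NC+CCl4, shLFAR1 and NC), minus the mean of the 3 NC arrays. Rows of the 17 genes of the mitochondrial pathway are pale in most arrays, with NC+CCl4 replicate 3 the darkest blue, and the strongest colours lie in Acot2, Vnn1, Pdk4 and Fgf21.

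The first comparison, NC+CCl4 against NC, asks what 6 weeks of CCl4 did to these genes in livers with the control virus. Pdk4, Acot2 and the peroxisomal enzyme Ehhadh rose. Acox2, Eci2 and Decr2, also peroxisomal, fell, as did Etfa of the mitochondrial electron transfer flavoprotein and the receptor Ppara. These were 8 of 31 members called by limma at an adjusted p under 0.05, where 13.1% of all genes were called. In the higher direction 3 members were called, beside 7.66% of all genes, and in the lower direction 5, beside 5.41%. The arrays did not overlap for 12 members, 3 higher and 9 lower, where 29.6% of all genes did not overlap, 13.8% higher and 15.8% lower. The median member changed by -0.07 on the log2 scale and the median gene of all tested by -0.05. The median absolute change was 0.25 over the members and 0.17 over all genes. Because these are whole-liver RNAs, fewer hepatocytes and less RNA per hepatocyte cannot be told apart. The count depended on single arrays: 4 members were called without NC replicate 1, 2 or 3 or without NC+CCl4 replicate 1, and all genes called then made up 6.94%, 7.26%, 8.93% and 12.1%. Pdk4 and Acot2 were among the 4 each time. Without shLFAR1+CCl4 replicate 3, which enters only through the shared spread, 10 members and 16.1% of all genes were called.

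**Figure D2:**
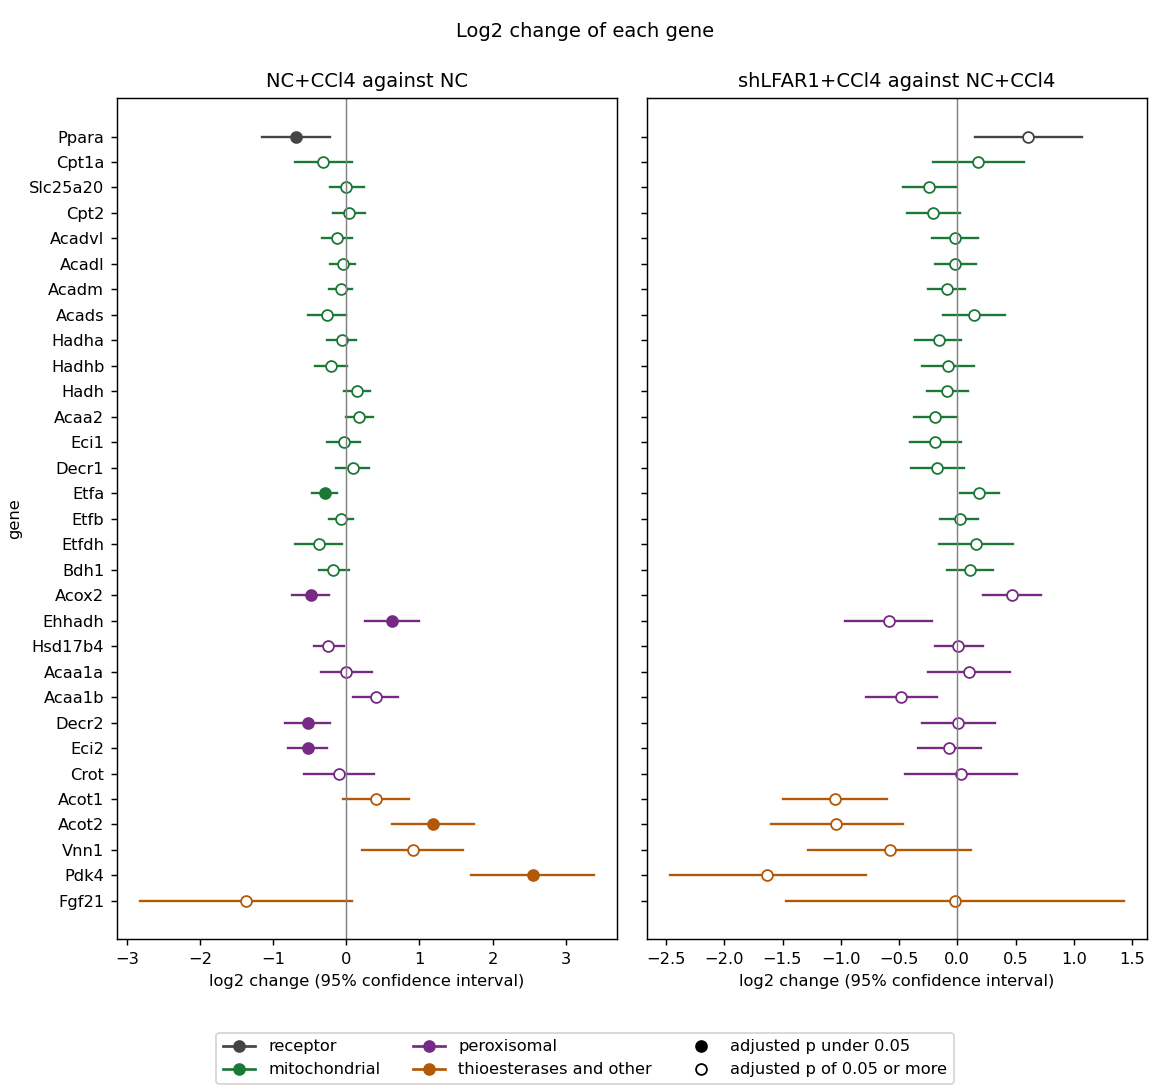
Log2 change of each of the 31 genes (points) with its 95% confidence interval (bars), for NC+CCl4 against NC on the left and shLFAR1+CCl4 against NC+CCl4 on the right, coloured by compartment and filled where the adjusted p was under 0.05. On the left 8 points are filled, of which 1 belongs to the mitochondrial pathway, and on the right none is; the horizontal scales of the panels differ.

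Pdk4, the kinase that shuts down pyruvate dehydrogenase and so spares glucose when fat is burned, had log2 values of 8.84, 7.92 and 7.32 in NC+CCl4 livers, against 5.08, 5.93 and 5.42 in NC livers. Every NC+CCl4 array lay above every NC array. The log2 change was 2.55 ± 0.39 (SE), a 5.85-fold rise (adjusted p = 0.00206, limma). It was the largest change among the members.

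Acot2, a mitochondrial thioesterase that releases free fatty acids from acyl-CoA, read 8.97, 8.39 and 8.99 in NC+CCl4 livers and 7.77, 7.41 and 7.59 in NC livers. Again the groups did not overlap, and the gene was 2.28-fold higher (log2 change 1.19 ± 0.26, adjusted p = 0.0106). A second Acot2 probe set rose by a smaller amount, 0.73 ± 0.36 on the log2 scale (adjusted p = 0.227 over all probe sets). The cytosolic paralog Acot1 averaged 7.75 ± 0.41 in NC+CCl4 livers and 7.34 ± 0.29 in NC livers (SD, n = 3 each). Its difference of 0.40 did not pass the test (adjusted p = 0.241). The 2 paralogs are close in sequence, and probe sets for them may share signal.

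Ppara itself had values of 8.60, 9.37 and 8.63 in NC+CCl4 livers, against 9.52, 9.46 and 9.70 in NC livers. NC+CCl4 replicate 2 lay only just below the NC arrays, while replicates 1 and 3 were clearly lower. The log2 change of -0.69 ± 0.21 was 1.62-fold lower and stood at the edge of the threshold (adjusted p = 0.0498). The 2 further Ppara probe sets changed by -0.69 and -0.53 (adjusted p = 0.0795 and 0.0952 over all probe sets, where the probe set used stood at 0.0551). The call was lost in 18 of 25 alternative settings, and its direction in none.

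**Figure D3:**
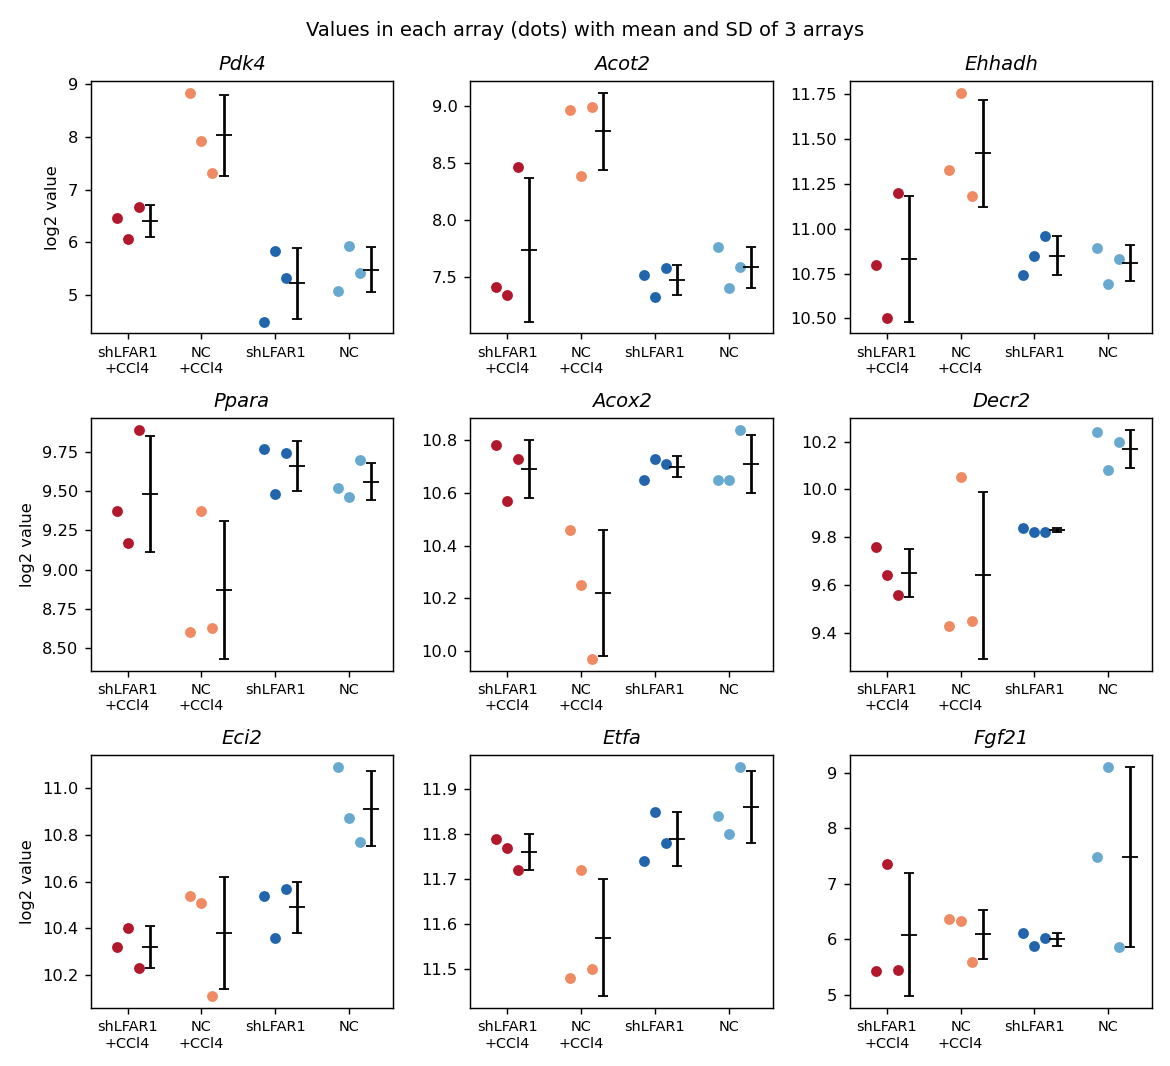
Log2 values of 9 genes in each array (dots), with the mean and SD of the 3 arrays of each group beside them, for shLFAR1+CCl4, NC+CCl4, shLFAR1 and NC from left to right. The 8 genes called in NC+CCl4 against NC show no overlap between those groups, and Fgf21, not called, lies anywhere between 5.85 and 9.11 in NC.

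Among the 8 peroxisomal genes 1 rose and 3 fell, where 7.66% of all genes rose and 5.41% fell. Ehhadh, the L-bifunctional enzyme that hydrates and dehydrogenates acyl-CoA, read 11.33, 11.76 and 11.18 in NC+CCl4 livers and 10.89, 10.69 and 10.83 in NC livers. It was 1.53-fold higher with no overlap (log2 change 0.62 ± 0.17, adjusted p = 0.0327). Acaa1b, a thiolase that closes the same cycle, read 13.38, 13.54 and 13.02 in NC+CCl4 livers and 13.04, 12.89 and 12.83 in NC livers. The groups overlapped through NC+CCl4 replicate 3, and the difference of 0.40 ± 0.14 did not pass (adjusted p = 0.0854). Its near-identical paralog Acaa1a averaged 8.32 ± 0.30 and 8.31 ± 0.11 in the same groups.

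Acox2, the oxidase for branched chains and bile acid side chains, had values of 10.46, 10.25 and 9.97 in NC+CCl4 livers, against 10.65, 10.65 and 10.84 in NC livers. All CCl4 arrays were lower, and the gene fell by 0.49 ± 0.12 on the log2 scale (adjusted p = 0.0158). Eci2 and Decr2 are the auxiliary isomerase and reductase for unsaturated chains. Eci2 read 10.54, 10.51 and 10.11 with CCl4 and 11.09, 10.87 and 10.77 without it. It fell by 0.53 ± 0.12 (adjusted p = 0.0151), and its groups did not overlap. Decr2 read 9.43, 10.05 and 9.45 in NC+CCl4 livers and 10.24, 10.08 and 10.20 in NC livers. Replicate 2 of NC+CCl4 lay just below the lowest NC array, and the fall was 0.53 ± 0.14 (adjusted p = 0.0268).

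The other 2 peroxisomal members moved little or unevenly. Hsd17b4, the D-bifunctional enzyme, averaged 11.43 ± 0.14 in NC+CCl4 livers and 11.67 ± 0.01 in NC livers. Its arrays did not overlap, but the difference of -0.25 ± 0.09 did not pass (limma, adjusted p = 0.113). A second Hsd17b4 probe set went the other way, by 0.10 ± 0.12. Crot, which makes carnitine esters of the shortened chains for export, differed by -0.10 ± 0.22 (adjusted p = 0.822) with an SD of 0.52 in the NC+CCl4 arrays. A second Crot probe set did change, by -0.47 ± 0.13 (adjusted p = 0.0395 over all probe sets). Of the 21 additional probe sets of 16 members, 13 pointed the same way as the one used and 8 the other way, and this Crot set was the only one called.

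In the 17 genes of the mitochondrial pathway all log2 changes lay between -0.38 and 0.17, 12 of them below 0. No gene rose and 1 fell, beside 7.66% and 5.41% of all genes. With Acot2 and Pdk4 counted as mitochondrial, 2 of 19 rose and 1 fell, and changes reached 2.55. The gene that fell was Etfa, the alpha subunit of the flavoprotein that takes electrons from the acyl-CoA dehydrogenases. It read 11.48, 11.72 and 11.50 in NC+CCl4 livers and 11.84, 11.80 and 11.95 in NC livers, a fall of 0.30 ± 0.08 without overlap (adjusted p = 0.0256). Its partner Etfb differed by -0.07 ± 0.08, and Etfdh, which passes the electrons on to the respiratory chain, by -0.38 ± 0.15 (adjusted p = 0.117).

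The gate of the mitochondrial pathway was not called. Cpt1a, the regulated first enzyme of the carnitine shuttle, read 10.83, 11.02 and 10.17 in NC+CCl4 livers and 11.09, 10.98 and 10.89 in NC livers. Only replicate 3 lay well below the NC range, and the difference was -0.32 ± 0.18 with a 95% interval of -0.70 to 0.07 (adjusted p = 0.287). Other Cpt1a probe sets differed by -0.02 ± 0.18 and 0.00 ± 0.25. The carrier Slc25a20 and Cpt2, the next steps of the shuttle, differed by 0.00 ± 0.11 and 0.04 ± 0.10.

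The 4 acyl-CoA dehydrogenases, each for another chain length, differed by -0.05 to -0.26 and none was called. Acadm, the medium-chain enzyme, read 12.15, 12.15 and 11.95 in NC+CCl4 livers and 12.23, 12.06 and 12.20 in NC livers. These values overlapped, and the 95% interval of the difference was -0.24 to 0.08. For the later steps of the cycle, Hadha and Hadhb of the trifunctional protein, Hadh and the thiolase Acaa2 differed by -0.21 to 0.17. The upper end was Acaa2, whose other probe sets, nearly as bright, went the other way by -0.05 ± 0.06 and -0.22 ± 0.11. The auxiliary enzymes Eci1 and Decr1 differed by -0.03 and 0.09. Bdh1, which converts acetoacetate into beta-hydroxybutyrate and was the only ketone body enzyme among the members, read 11.55, 11.69 and 11.37 with CCl4 and 11.75, 11.64 and 11.74 without it. The groups overlapped, and the interval of its difference ran between -0.38 and 0.03 (adjusted p = 0.249).

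Fgf21, the fasting hormone that the liver secretes, had no call in any of the 5 comparisons. It read 6.37, 6.32 and 5.59 in NC+CCl4 livers and 7.48, 9.11 and 5.85 in NC livers. Its SD of 1.63 in the NC arrays was the largest of any member, and the difference of -1.38 ± 0.67 did not pass (adjusted p = 0.207). Without NC replicate 3, the lowest NC array, it was called as lower (adjusted p = 0.0369). Vnn1, the enzyme that releases pantothenate from pantetheine, averaged 7.63 ± 0.35 in NC+CCl4 livers and 6.72 ± 0.56 in NC livers (difference 0.91 ± 0.32, adjusted p = 0.0863).

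Averaged over genes, the mitochondrial and the peroxisomal steps stood at nearly the same level in NC+CCl4 livers. This holds for the steps alone: with Acot2 and Pdk4 counted as mitochondrial, the mitochondrial minus the peroxisomal mean was 0.22 on the log2 scale. These averages are a description, with no test. Relative to the NC mean, the 17 mitochondrial genes stood at -0.03, 0.04 and -0.29 log2 units in the 3 NC+CCl4 arrays, and the 8 peroxisomal genes at -0.07, 0.14 and -0.40. Mean values were -0.10 ± 0.17 and -0.11 ± 0.27 (SD over 3 arrays), and the mitochondrial minus the peroxisomal mean was 0.01 ± 0.10. In shLFAR1+CCl4 livers the means were -0.13 ± 0.05 over the mitochondrial and -0.17 ± 0.04 over the peroxisomal genes. In shLFAR1 livers, which received no CCl4, they were -0.13 ± 0.05 and -0.18 ± 0.02, as far below NC as with CCl4 and with less spread than in NC+CCl4 livers. The sizes of the departures were less alike. The mean absolute deviation from the NC mean was 0.33, 0.42 and 0.51 over the peroxisomal genes in the NC+CCl4 arrays, and 0.13, 0.10 and 0.31 over the mitochondrial ones. This order held in all 12 arrays, those with oil included: the peroxisomal genes were at 0.21 to 0.22 and the mitochondrial at 0.11 to 0.18 in the shLFAR1 arrays, and at 0.05 to 0.08 and 0.04 to 0.05 in the NC arrays. With Acot2 and Pdk4 counted as mitochondrial it turned round in NC+CCl4 replicate 1 (0.37 over the mitochondrial and 0.33 over the peroxisomal genes) and in NC replicate 2 (0.07 and 0.05). The peroxisomal members also had the larger standard errors, with a median of 0.14 beside 0.09 for the mitochondrial members and 0.13 for all genes.

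**Figure D4:**
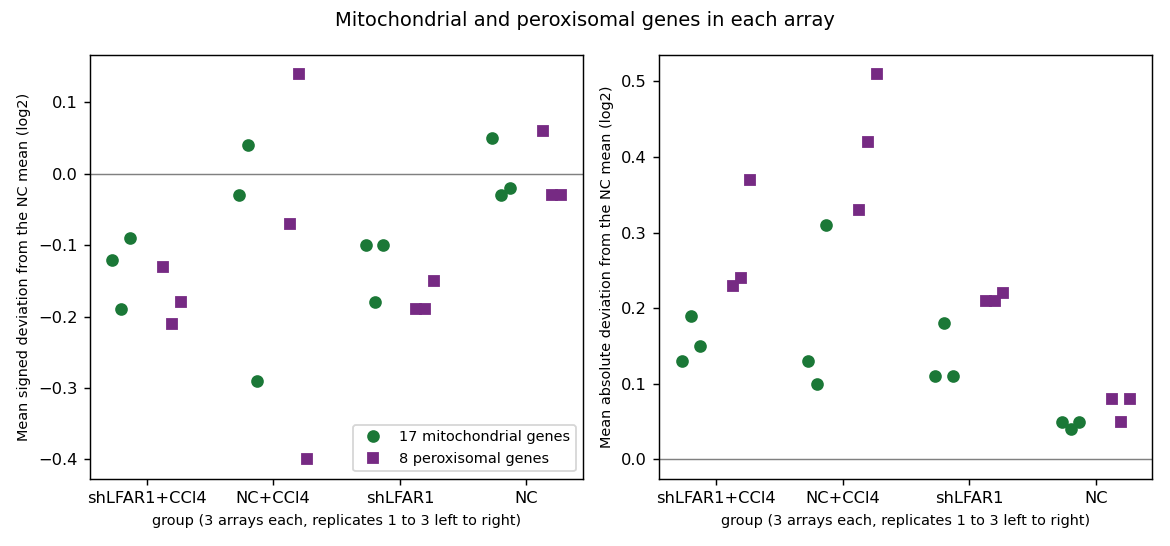
Mean signed deviation (left) and mean absolute deviation (right) from the NC mean, in log2 units, of the 17 mitochondrial genes (circles) and the 8 peroxisomal genes (squares) in each array of the 4 groups. On the left the symbols scatter most in NC+CCl4, where circles lie between -0.29 and 0.04 and squares between -0.40 and 0.14. On the right the squares stand above the circles in every array. The NC arrays define the mean from which deviations are taken.

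Replicate 3 of NC+CCl4 stood apart within the mitochondrial genes. It was the lowest of all 12 arrays for 9 of 17 mitochondrial genes, where it was the lowest for 16.5% of all genes. It was the highest for none of the 17, and for 8.74% of all genes. Without it, 6 members were called in NC+CCl4 against NC (Pdk4, Acot2, Ehhadh, Acaa1b, Acox2 and Eci2), beside 9.09% of all genes. NC+CCl4 replicate 2, in contrast, was the highest array for 4 of 8 peroxisomal genes and the lowest for none. Over all genes it was the highest for 7.98% and the lowest for 9.85%. Within groups, the median SD of the members was 0.244 in NC+CCl4, 0.083 in NC, 0.129 in shLFAR1+CCl4 and 0.09 in shLFAR1. For all genes it was 0.172, 0.131, 0.143 and 0.106 in the same order, so only in NC+CCl4 was the median higher for the members.

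Markers of other cells moved with CCl4 in the same arrays. Of 24 macrophage and Kupffer cell markers 17 rose and none fell, with a median log2 change of 1.70. Of 20 stellate cell and myofibroblast markers 14 rose and 1 fell, and of 21 cell cycle genes 18 rose. Of 22 hepatocyte markers 3 rose and 1 fell, and their median change was -0.03. The part of these shifts in the values of the members was not tested.

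Promoter sequences of the 8 members called in NC+CCl4 against NC are shown next, since PPAR-alpha with RXR is known to bind a direct repeat of AGGTCA with 1 base between the repeats, written AGGTCANAGGTCA. Windows of 300 bases, 250 before and 50 from the annotated start on, were taken from RefSeq (build GRCm38.p6) and were present for 27 of the 31 members, 2 of them with 2 starts. Both strands were searched, and a place with the most of the 12 fixed letters is in capitals. Where several places matched equally well, as in Pdk4, only the first found is marked, with the printed strand searched first. The windows are chr6:5496229-5496528 on the minus strand for Pdk4, chr12:83987611-83987910 on the plus strand for Acot2, chr16:21787785-21788084 on the minus strand for Ehhadh, chr14:8258790-8259089 on the minus strand for Acox2, chr13:34994095-34994394 on the minus strand for Eci2, chr17:26090115-26090414 on the minus strand for Decr2, chr9:55512194-55512493 on the minus strand for Etfa and chr15:85735526-85735825 on the plus strand for Ppara, each printed 5′ to 3′ along its gene.
Pdk4: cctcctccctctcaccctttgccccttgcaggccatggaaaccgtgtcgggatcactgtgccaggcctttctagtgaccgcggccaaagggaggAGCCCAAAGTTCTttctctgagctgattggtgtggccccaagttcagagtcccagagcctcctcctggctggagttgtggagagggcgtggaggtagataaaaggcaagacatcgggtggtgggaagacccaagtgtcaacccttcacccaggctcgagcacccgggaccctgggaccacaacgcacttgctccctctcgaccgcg
Acot2: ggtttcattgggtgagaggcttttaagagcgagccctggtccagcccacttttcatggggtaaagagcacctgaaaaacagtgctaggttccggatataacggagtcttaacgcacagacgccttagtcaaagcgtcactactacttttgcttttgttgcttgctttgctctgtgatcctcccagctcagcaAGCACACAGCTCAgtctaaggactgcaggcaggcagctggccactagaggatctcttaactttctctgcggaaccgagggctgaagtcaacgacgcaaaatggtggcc
Ehhadh: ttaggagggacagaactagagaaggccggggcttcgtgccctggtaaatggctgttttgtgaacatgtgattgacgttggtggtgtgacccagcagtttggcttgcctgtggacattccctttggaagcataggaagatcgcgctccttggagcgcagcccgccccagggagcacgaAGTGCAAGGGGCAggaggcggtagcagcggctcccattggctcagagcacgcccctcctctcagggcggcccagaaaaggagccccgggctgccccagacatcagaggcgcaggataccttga
Acox2: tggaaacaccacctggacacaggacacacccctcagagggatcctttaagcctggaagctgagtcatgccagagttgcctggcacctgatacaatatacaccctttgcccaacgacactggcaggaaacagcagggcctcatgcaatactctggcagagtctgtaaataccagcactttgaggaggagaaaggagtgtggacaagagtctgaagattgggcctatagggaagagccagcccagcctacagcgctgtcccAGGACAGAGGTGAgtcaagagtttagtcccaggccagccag
Eci2: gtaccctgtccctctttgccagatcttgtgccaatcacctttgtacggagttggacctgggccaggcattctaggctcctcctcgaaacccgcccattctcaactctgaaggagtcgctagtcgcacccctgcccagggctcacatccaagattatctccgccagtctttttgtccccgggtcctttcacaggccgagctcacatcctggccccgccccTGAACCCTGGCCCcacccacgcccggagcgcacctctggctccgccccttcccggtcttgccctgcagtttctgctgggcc
Decr2: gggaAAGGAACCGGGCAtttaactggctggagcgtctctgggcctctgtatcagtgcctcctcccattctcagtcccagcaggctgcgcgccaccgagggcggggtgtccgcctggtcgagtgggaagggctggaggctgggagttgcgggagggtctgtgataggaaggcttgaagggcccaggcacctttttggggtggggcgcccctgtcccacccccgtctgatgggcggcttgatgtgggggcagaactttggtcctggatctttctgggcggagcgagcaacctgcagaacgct
Etfa: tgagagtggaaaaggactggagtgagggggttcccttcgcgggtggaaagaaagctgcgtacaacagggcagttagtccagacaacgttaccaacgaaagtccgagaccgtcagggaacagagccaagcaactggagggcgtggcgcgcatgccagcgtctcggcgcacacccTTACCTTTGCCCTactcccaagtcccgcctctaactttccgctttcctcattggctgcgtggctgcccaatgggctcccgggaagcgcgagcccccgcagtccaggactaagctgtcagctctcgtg
Ppara: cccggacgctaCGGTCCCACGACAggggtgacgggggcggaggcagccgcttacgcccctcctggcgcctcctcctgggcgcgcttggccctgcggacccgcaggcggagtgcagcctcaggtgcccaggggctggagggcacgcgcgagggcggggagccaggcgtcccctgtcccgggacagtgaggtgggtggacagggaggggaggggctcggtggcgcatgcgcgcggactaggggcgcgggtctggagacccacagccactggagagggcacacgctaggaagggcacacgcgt
Among the 3 members that rose, Acot2 matched 9 letters and Pdk4 and Ehhadh matched 8 each. Among the 5 that fell, Acox2 and Etfa matched 10 letters, Eci2 and Ppara 8 each and Decr2 7, so the counts of both directions overlapped. At least 10 letters were matched by 3.86% of all 32851 promoter windows, at least 9 by 24.6%, at least 8 by 79.8% and at least 7 by 99.9%. Of the members not called, the carrier Slc25a20 also reached 10, and no window of a member held 11 or 12. Such a match describes letters only and is no evidence of binding, and these windows leave out more distant sequence.

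Next, the hairpin virus was compared with the control virus in livers that all received CCl4 (shLFAR1+CCl4 against NC+CCl4). No member was called by limma, where 0.291% of all genes were called. At an unadjusted p under 0.05 there were 10 of 31 members, beside 14.2% of all genes, and the methods' t-test called none after adjustment. This comparison shares its NC+CCl4 arrays with the comparison above, so the values of a gene in the 2 comparisons are not independent. Pdk4 read 6.47, 6.07 and 6.67 in shLFAR1+CCl4 livers, against 8.84, 7.92 and 7.32 in NC+CCl4 livers. The groups did not overlap, which held for 4 members, 2 higher and 2 lower, and for 12.3% of all genes, 7.2% higher and 5.11% lower. The log2 difference was -1.63 ± 0.39 (adjusted p = 0.0954).

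Acot1 read 6.75, 6.52 and 6.82 in shLFAR1+CCl4 livers, against 7.91, 7.28 and 8.05 in NC+CCl4 livers. Here too the arrays did not overlap, with a difference of -1.05 ± 0.21 (adjusted p = 0.0662). Samples with the same replicate number deviated weakly together in these 2 groups (correlations 0.126, 0.229 and 0.192). Those with different numbers had correlations of -0.234 to 0.093. Deviations from a group mean cancel within the group, so these correlations are not independent of those with the same number. With the replicate number as a block in limma, Acot1 was the 1 member called, as lower (adjusted p = 0.0219), beside 0.302% of all genes. The labels do not pair these arrays, and the pairing was read from these same data. No conclusion is therefore drawn from the call with the block. Acot2 read 7.42, 7.35 and 8.47 in shLFAR1+CCl4 livers, against 8.97, 8.39 and 8.99 in NC+CCl4 livers. Its replicate 3 lay within the NC+CCl4 range and the other replicates far below it (difference -1.04 ± 0.26, adjusted p = 0.103).

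Ehhadh showed the same arrangement, with 10.80, 10.50 and 11.20 in shLFAR1+CCl4 livers and 11.33, 11.76 and 11.18 in NC+CCl4 livers. Replicate 3 again overlapped with NC+CCl4 (difference -0.59 ± 0.17, adjusted p = 0.139). Acaa1b read 12.67, 12.72 and 13.12, against 13.38, 13.54 and 13.02 in NC+CCl4 livers, a difference of -0.48 ± 0.14 (adjusted p = 0.143). Acox2 read 10.78, 10.57 and 10.73 in shLFAR1+CCl4 livers, against 10.46, 10.25 and 9.97 in NC+CCl4 livers. These did not overlap, and the difference of 0.47 ± 0.12 did not pass (adjusted p = 0.0998). Ppara read 9.37, 9.17 and 9.89 in shLFAR1+CCl4 livers, against 8.60, 9.37 and 8.63 in NC+CCl4 livers, overlapping through NC+CCl4 replicate 2 (difference 0.61 ± 0.21, adjusted p = 0.212).

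Etfa, at 11.79, 11.77 and 11.72 in shLFAR1+CCl4 livers against 11.48, 11.72 and 11.50 in NC+CCl4 livers, differed by 0.19 ± 0.08 (adjusted p = 0.284). Decr2 and Eci2 differed by less: Decr2 read 9.76, 9.64 and 9.56 with the hairpin virus and 9.43, 10.05 and 9.45 with the control virus (difference 0.01 ± 0.14), and Eci2 differed by -0.07 ± 0.12, with values of 10.32, 10.40 and 10.23 in shLFAR1+CCl4 livers. Over the 17 mitochondrial genes the differences ran between -0.24 and 0.19. Cpt1a read 10.81, 10.73 and 11.02 in shLFAR1+CCl4 livers, against 10.83, 11.02 and 10.17 in NC+CCl4 livers (difference 0.18, 95% interval -0.21 to 0.57). Fgf21 read 5.42, 7.36 and 5.45 in shLFAR1+CCl4 livers, with a difference of -0.02 ± 0.67. The mean over the mitochondrial genes minus that over the peroxisomal genes was 0.04 ± 0.04 in shLFAR1+CCl4 livers and 0.01 ± 0.10 in NC+CCl4 livers (SD, n = 3 each).

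Counts in this comparison depended on single arrays. Without shLFAR1+CCl4 replicate 3, the array that lay among the NC+CCl4 arrays on the first principal component, 5 members were called, all lower (Pdk4, Acot1, Acot2, Ehhadh and Acaa1b), and 7.29% of all genes. Without NC+CCl4 replicate 2, 3 members were called (Acot1 and Acot2 lower, Ppara higher) and 3% of all genes. Without NC+CCl4 replicate 1, the array with the high Gapdh difference, no member and 0.187% of all genes were called. In these fits the remaining pair of arrays was assumed to vary like the other groups. With arrays weighted by their agreement with the model, 5 members were called and 5.05% of all genes. The summed macrophage markers were 1.76, 1.68 and 5.09 times the NC mean in the shLFAR1+CCl4 arrays, against 3.73, 6.97 and 4.21 times in the NC+CCl4 arrays. The array highest in these markers was ranked among the members given by array for both groups above. In shLFAR1+CCl4, replicate 3 was the highest in Ehhadh, Acaa1b, Ppara, Cpt1a, Acot1, Acot2 and Pdk4. It was the lowest in Etfa, Decr2 and Eci2. In NC+CCl4, replicate 2 was the highest in Ehhadh, Acaa1b, Ppara, Cpt1a, Etfa and Decr2. It was the lowest in Acot1 and Acot2. The other members given lay between. The part of these markers in the members' values was not tested.

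In the third comparison, shLFAR1+CCl4 against shLFAR1, CCl4 and oil were compared under the hairpin virus. limma called no member and 0.407% of all genes, 0.324% higher and 0.0824% lower. At an unadjusted p under 0.05 there were 2 members, Vnn1 and Pdk4, beside 10.8% of all genes, and the methods' t-test called none after adjustment. Vnn1 averaged 7.05 ± 0.50 in shLFAR1+CCl4 livers and 5.50 ± 0.45 in shLFAR1 livers (SD, n = 3 each), a difference of 1.55 ± 0.32 without overlap (adjusted p = 0.0646). Pdk4 read 6.47, 6.07 and 6.67 in shLFAR1+CCl4 livers and 4.49, 5.84 and 5.33 in shLFAR1 livers. Every CCl4 array lay above every oil array, with a difference of 1.18 ± 0.39 (adjusted p = 0.267). Ehhadh, Acox2 and Acot2, called in livers with the control virus, differed here by -0.02 ± 0.17, 0.00 ± 0.12 and 0.27 ± 0.26. Of 31 members, 29 (93.5%) differed by less than 0.5 on the log2 scale, a share near the 94.4% of all genes that did so. The arrays of 2 members lay wholly higher and of 2 wholly lower (Eci1 and Decr2), where 20.1% of all genes did not overlap, 8.41% higher and 11.7% lower. Without shLFAR1+CCl4 replicate 3, again no member was called, beside 0.462% of all genes.

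The fourth comparison, shLFAR1 against NC, set the viruses side by side in oil-treated livers. No gene of any kind was called by limma, nor any member, so the share called over all genes was 0%. With an unadjusted p under 0.05 there were 6 members, beside 2.77% of all genes. The methods' t-test called none after adjustment. By sign, 29 of 31 members were lower in shLFAR1 livers, all 17 mitochondrial genes among them, with a median difference of -0.13, where the median of all genes was 0.00 and 50.2% of them were higher. The arrays of 11 members lay wholly lower and of none wholly higher, beside 4.76% of all genes wholly lower and 6.01% wholly higher. In the lists beyond the members, described below, 7 of 17 further mitochondrial genes were lower (median 0.04), as were 15 of 24 further peroxisomal genes (-0.04). Also lower were 5 of 6 ketone body genes (-0.12), 17 of 27 PPAR-alpha targets (-0.06) and 19 of 25 of its regulators (-0.1). Of the hepatocyte markers 17 of 22 were lower (-0.02). The members were measured on the same 6 arrays and are not independent of each other. NC replicate 1 was the highest of all 12 arrays for 9 of 31 members, 7 of them mitochondrial, and for 7.94% of all genes.

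Eci2 was among these 11, with 10.54, 10.36 and 10.57 in shLFAR1 livers, against 11.09, 10.87 and 10.77 in NC livers (difference -0.42 ± 0.12). Slc25a20 averaged 10.24 ± 0.11 in shLFAR1 livers and 10.63 ± 0.07 in NC livers (difference -0.39 ± 0.11). Vnn1 averaged 5.50 ± 0.45 and 6.72 ± 0.56 in the same groups (difference -1.23 ± 0.32). The adjusted p of each was 1.00. Ppara itself read 9.77, 9.48 and 9.74 in shLFAR1 livers, against 9.52, 9.46 and 9.70 in NC livers, a difference of 0.10 ± 0.21. The same NC arrays entered the comparison of NC+CCl4 with NC.

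Whether CCl4 acted differently under the 2 viruses was tested as an interaction. No member passed, and 0.022% of all genes did. At an unadjusted p under 0.05 there were 6 members, Pdk4, Acot2, Ehhadh and Acaa1b with a negative and Acox2 and Etfa with a positive term, beside 9.51% of all genes. The CCl4 response of Pdk4 under the hairpin virus minus that under the control virus was -1.37 ± 0.55 log2 units (adjusted p = 0.453), and for Acot2 it was -0.92 ± 0.37 (adjusted p = 0.449). For Acox2 the term was 0.49 ± 0.16 (adjusted p = 0.385). A difference in response between the viruses was thus not shown for any member. Without shLFAR1+CCl4 replicate 3, 1 member, Acot2, was called, as lower, beside 3.2% of all genes.

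Further genes of the pathways, taken from lists beyond the members, were read for NC+CCl4 against NC, where 7.66% of all genes rose and 5.41% fell. Of 17 further genes tied to mitochondrial oxidation 4 rose and 4 fell, with 11 below 0 and a median change of -0.25. Changes in this list reached down to -0.83. The 4 that fell were not among the largest changes, which alone are named. The highest changes belonged to genes outside the oxidation cycle itself: Acacb (1.58 ± 0.46, adjusted p = 0.0392) makes the malonyl-CoA that inhibits Cpt1a, and Acsl3 (1.38 ± 0.25, adjusted p = 0.00406) and Acsl4 (1.06 ± 0.20, adjusted p = 0.00555) activate fatty acids mainly for lipid synthesis. Of 24 further peroxisomal genes none rose and 2 fell, namely Phyh, which starts the breakdown of phytanic acid (-0.43 ± 0.10, adjusted p = 0.0120), and the very long chain acyl-CoA synthetase Slc27a2 (-0.35 ± 0.11, adjusted p = 0.0471). The median of these 24 was -0.16, and their share of 2 genes is near that of all genes.

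Beside the same shares of all genes, 2 of 6 further ketone body genes rose and none fell. Oxct1, the enzyme with which other tissues use ketone bodies and which hepatocytes hardly express, read 6.96, 6.89 and 6.71 in NC+CCl4 livers, against 5.11, 4.96 and 4.86 in NC livers, a 3.68-fold rise without overlap (adjusted p = 0.000501). The monocarboxylate carrier Slc16a1 rose by 0.57 ± 0.12 (adjusted p = 0.0108). Of 27 further PPAR-alpha targets 1 rose and 5 fell, again beside 7.66% and 5.41% of all genes. Cd36, a fatty acid receptor that macrophages also carry, rose by 2.56 ± 0.45 (adjusted p = 0.00379). The sterol hydroxylase Cyp8b1 fell by 2.42 ± 0.64 (adjusted p = 0.0280). Fitm1, which takes part in lipid droplet formation, fell by 1.96 ± 0.19 (adjusted p = 0.000142). It alone of all 5 lists was also called in shLFAR1+CCl4 against shLFAR1 (-1.91 ± 0.19, adjusted p = 0.000585). Of 25 partners and regulators of PPAR-alpha none rose and 2 fell, the deacetylase Sirt1 (-0.75 ± 0.18, adjusted p = 0.0158) and the RXR form Rxrb (-0.40 ± 0.12, adjusted p = 0.0495), again a share near that of all genes. No gene of these lists was called in shLFAR1+CCl4 against NC+CCl4, in shLFAR1 against NC or in the interaction.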

How the data were processed

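The authors deposited 1 log2 value per probe set and array (45101 probe sets, 12 arrays); the summarization and normalization methods are not given in the sources used here. Array medians lay between 4.42 and 4.50, so the values were used as deposited, with no filter. Probe sets with exactly 1 gene symbol gave 18193 genes, each by its brightest probe set on average. All 12 arrays entered 1 limma model (version 3.58.1, R 4.3.3) of 4 groups with an intensity trend and 8 residual degrees of freedom. p-values were two-sided and adjusted by Benjamini-Hochberg over all genes, with calls at an adjusted p under 0.05. The fit was also run on simulated arrays, with the same spread of a gene in every group. Spread in the real arrays differed between groups, so that run does not vouch for the calls. Precision is limited by having 3 arrays per group.

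The members, the further gene lists and the comparisons were chosen with earlier results of these data known. Values in every array are given for members called in any comparison and for Ppara, Cpt1a, Acadm, Ehhadh, Acaa1b, Bdh1, Pdk4 and Fgf21; of the further lists, at most the 3 called genes with the largest change are named. Acot1 values were added after they were seen. The labels number replicates 1 to 3 in each group. Same-numbered arrays of shLFAR1+CCl4 and NC+CCl4 deviated weakly together (correlations 0.126, 0.229 and 0.192), as read from the data and not from the labels. Those of the other pairs of groups compared did not do so in every number. The pairs NC+CCl4 with shLFAR1 and shLFAR1+CCl4 with NC were not examined. Alternatives were other probe set rules, scalings, moderation, array weights, a replicate block, the methods' t-test with its threshold of a fold over 1.6 at an unadjusted p under 0.05, and leaving out each array.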

Additional observations from a re-analysis of the deposited data

How the results depend on the processing

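For NC+CCl4 against NC, the count of 8 members ranged between 4 and 10 when single arrays were left out, beside 6.94% to 16.1% of all genes. It was 3 with only the groups compared, where 1661 of 18193 genes were called. By the methods' t-test after adjustment it was 0, where 280 genes were called. With a fold over 1.6 added to the adjusted p it was 3, and by the methods' t-test at their threshold 2. For settings with the fold threshold of 1.6, here and in the comparisons below, no count over all genes is given. Their member counts can therefore not be read against a share of all genes. With the replicate number as a block it was 7, without Ppara, beside 2440 of all genes, though these numbers do not pair these groups. Pdk4 and Acot2 were called in 24 of 25 alternatives, all but the adjusted methods' t-test. Acox2 and Eci2 were called in 20, Ehhadh in 17, Decr2 in 16, Etfa in 15 and Ppara in 7, and none reversed.

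For shLFAR1+CCl4 against NC+CCl4, where no member was called, the count was 1 with robust moderation and 1 with the replicate block (Acot1 in both). Of all 18193 genes, 61 and 55 were called in these settings. The labels do not pair the arrays by replicate number, so no conclusion is drawn from the block. The member count was 5 with array weights, beside 5.05% of all genes. With an array left out it was 0 to 5, beside 4 to 1327 genes. The methods' t-test at their threshold gave 2 members, with no count over all genes to set beside it. For shLFAR1+CCl4 against shLFAR1 the member count was 1 with array weights, beside 375 of all genes. The methods' t-test at their threshold also gave 1, again with no count over all genes. With an array left out the count was 0 to 1 (1 without NC replicate 1, beside 62 of all genes). Each time the member was Vnn1. Vnn1 was also the 1 member that the methods' t-test at their threshold gave for shLFAR1 against NC. The interaction gave 0 to 1 with an array left out (Acot2 without shLFAR1+CCl4 replicate 3, beside 3.2% of all genes). The block changed no other call.

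The mitochondrial minus peroxisomal change of 0.01 for NC+CCl4 against NC was -0.07 with Eci2, which also has a mitochondrial form, counted as mitochondrial, 0.22 with Acot2 and Pdk4 counted as mitochondrial (an alternative chosen after seeing the data), 0.10 as a difference of medians, and -0.03 to 0.07 with an array left out. That of 0.03 for shLFAR1+CCl4 against NC+CCl4 was -0.11 with Acot2 and Pdk4 counted as mitochondrial, -0.09 by medians and -0.03 to 0.07 with an array left out. The cause of these shifts was not tested. The median standard error was 0.09 for the mitochondrial and 0.14 for the peroxisomal members.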
